A study of Homo sapiens with 18 samples.

Results

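The 10 genes described here encode matrix-binding integrin subunits. They were chosen by symbol (ITGA1, ITGA5, ITGA7, ITGA8, ITGA9, ITGA11, ITGAV, ITGB1, ITGB3 and ITGB5) from the 61487 Ensembl gene identifiers counted, and each symbol matched 1 identifier. RNA was counted in 18 libraries of MSC-hTERT, a human mesenchymal stem cell line immortalized with telomerase and grown in medium with serum and FGF-2. The 6 groups of 3 libraries carried pMSCV (a retroviral vector, used here as the reference), SRF (serum response factor, a transcription factor), or SRF fused to FOXO1, ICA1L, PDGFRB or RELA, each fusion being named by its 2 partners. The groups share this 1 line, and the labels do not say whether the 3 libraries of a group came from separate cultures, so p-values measure the spread between these libraries only.

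Integrins are receptors made of 1 alpha and 1 beta subunit that span the cell membrane. Outside the cell they bind matrix proteins, and inside it talin, kindlin and parvin proteins tie them to actin. ITGA5 with ITGB1 is the classical fibronectin receptor. ITGAV pairs with ITGB3, ITGB5 or ITGB1 and binds vitronectin, fibronectin and latent TGF-beta. ITGA1 and ITGA11 are collagen receptors, ITGA7 is the laminin receptor of muscle, ITGA8 is found in smooth muscle and kidney mesenchyme and binds nephronectin, and ITGA9 binds tenascin; these 5 alpha subunits all pair with ITGB1. SRF, with cofactors that sense actin, drives genes of contraction and adhesion through a DNA element called the CArG box.

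RefSeq start sites (build GRCh38.p14) were found for 7 of the members; ITGA7, ITGA9 and ITGB3 are the others. The 27 bases around the outermost RefSeq start of each, 16 before it and 11 from it on, are shown because the question of these cells is what SRF and its fusions do to transcription. Capitals mark TGANTCA, the site bound by AP-1 proteins.
ITGA5: ctccccgcgtTGAGTCAttcgcctctg
ITGAV: cggcgctcaccccggcagtccccagcc
ITGB5: cttttttgaaatcattaactttcattt
ITGA1: cgaaggtccagcccttacccgccttcc
ITGA11: gcccggcgccccgcgcagtgcaggctg
ITGB1: acacccgggaggccccgccagcccgcg
ITGA8: gcgggcgggtgggagcagacgccgggc
The ITGA5 bases lie on the minus strand at chr12:54419256-54419282, and the match begins 6 bases before the start. Windows of 300 bases (250 before a start and 50 after it) were searched on both strands for that motif and for the CArG box of SRF, which reads the same on both. TGANTCA was in 1 of the 11 windows of these 7 genes, against 7.71% of 35116 windows of all genes. The CArG box was in 0 of the 11, against 1.29% of all windows, and with 1 mismatch allowed it was again in 0 of the 11, against 18.9%. A match is a description of the letters only, and no match says only that these letters are not in this window.

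The whole series was checked first. Total counts ran from 19362319 to 29806771 per library. SRF was at 57.3 to 64.4 CPM (counts scaled to 1 common library total) in pMSCV, 678 to 1122 CPM in SRF and 151 to 337 CPM in the 4 fusion groups. ICA1L and RELA were raised in the groups named after them. PDGFRB had a mean of 709 CPM in SRF-PDGFRB and 425 CPM in pMSCV. FOXO1 was at 7.35 to 14.4 CPM in SRF-FOXO1 and 9.45 to 17.5 CPM in pMSCV, so it does not check that label, and those libraries are called the libraries labelled SRF-FOXO1. Each of the 6 mesenchymal markers (ENG, THY1, NT5E, PDGFRB, COL1A1 and COL1A2) was at 36.8 CPM or more in each library. PTPRC and CD14 stayed under 1 CPM, CD34 reached 3.47 CPM, MYOG was at 0, and DES, the muscle filament gene, reached 1.10 CPM. Of the epithelial markers, EPCAM and CDH1 reached 0.537 and 1.14 CPM while the keratins KRT8 and KRT18 reached 52.3 and 191 CPM. The 4 together were at 50.9 to 91.1 CPM in pMSCV, 51.2 to 143 CPM in SRF and 52.2 to 107 CPM in SRF-PDGFRB. They were at 75.2 to 153 CPM in SRF-RELA, 93.5 to 226 CPM under the SRF-FOXO1 label and 98.6 to 232 CPM in SRF-ICA1L. Their part in the results was not tested. Of the endothelial markers, CDH5, VWF and KDR reached 1.96, 1.46 and 3.26 CPM and PECAM1 27.96 CPM. In RNA from whole cultures, fewer cells of a type and less RNA per cell cannot be told apart.

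The members covered a wide range of levels. Divided by exon length, ITGB1 came first in each of the 6 groups, with 477 ± 77.8 CPM per kb (SD, n = 3) in pMSCV. ITGAV (77.1 ± 7.26 CPM per kb), ITGB5 (69.4 ± 11.6) and ITGA5 (67.1 ± 6.08) followed in pMSCV, and neighbours in this order overlapped between libraries. Below them, and apart from each other, came ITGA11 with 32.4 ± 3.87 and ITGA1 with 13.4 ± 5.14 CPM per kb. ITGA7 with 3.495 ± 1.503 and ITGB3 with 3.09 ± 0.907 CPM per kb overlapped each other. In the other 5 groups ITGA5 came second by its mean, although its libraries overlapped those of ITGAV in the 4 fusion groups. ITGA7 and ITGA1 overlapped in 4 groups and did not in pMSCV and SRF-PDGFRB.

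**Figure D1:**
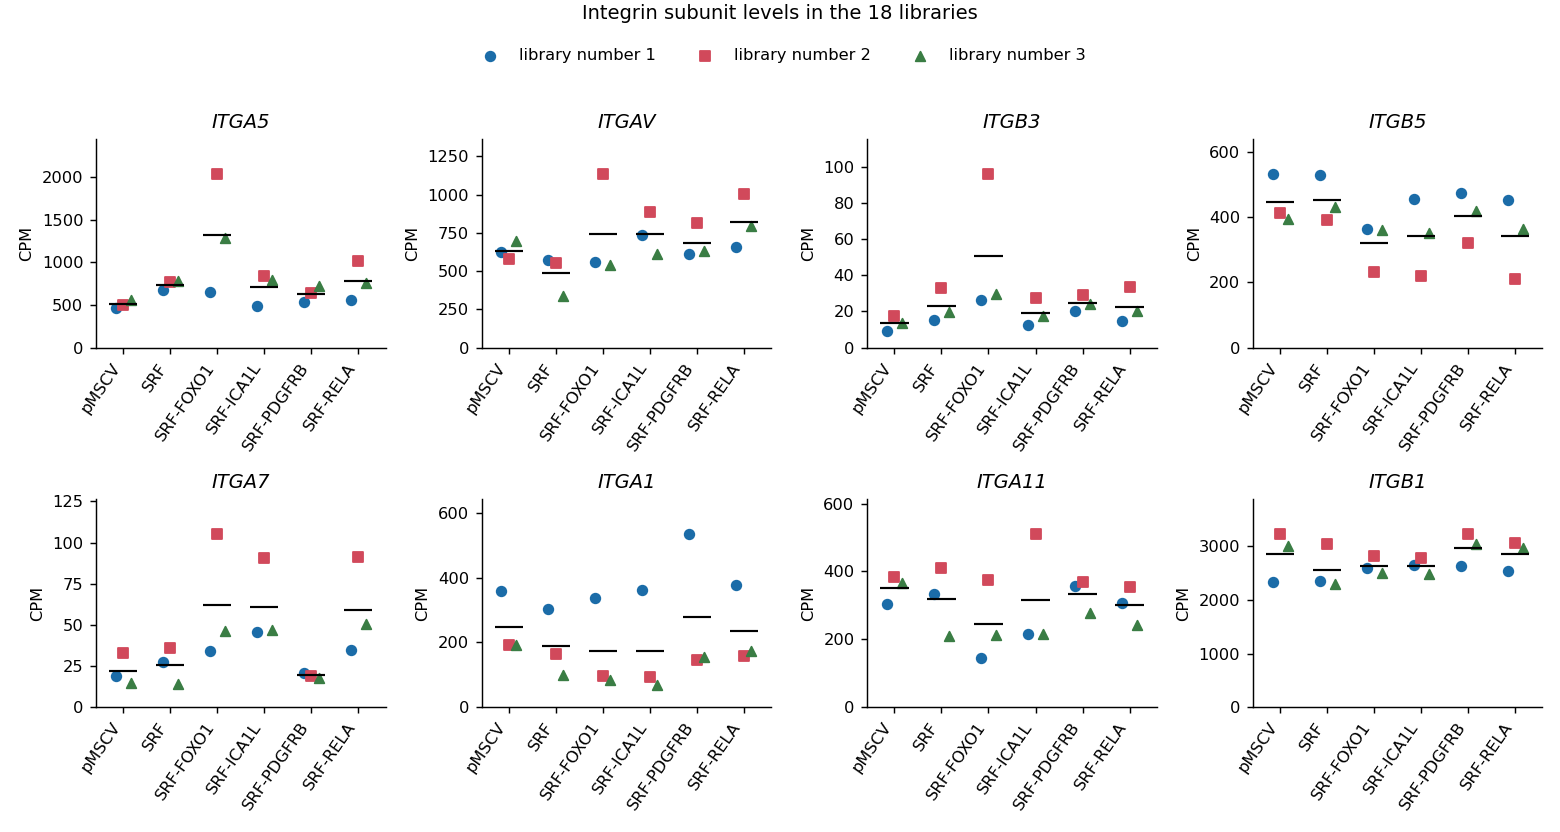
Levels of the 8 members that passed the count filter, in CPM, in each library of the 6 groups (symbols give the library number, bars the mean of 3). ITGA7 is high in the libraries numbered 2 of 3 fusion groups, from 90.6 to 105 CPM, and ITGA1 is high in each library numbered 1.

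ITGA8 and ITGA9 were at the limit of detection. ITGA8 (ENSG00000077943, chr10:15513949-15720125 in GENCODE 29 on GRCh38), the smooth muscle subunit, had 0 counts in 16 libraries and 1 count each in SRF-PDGFRB replicate 1 and SRF-RELA replicate 3. A count of 0 allows up to 3 counts, which is 0.101 to 0.155 CPM in these libraries and covers counting error only. NPNT, which encodes its ligand nephronectin, reached 0.313 CPM. ITGA9 (ENSG00000144668, chr3:37452115-37823514) had 1 to 6 counts per library, at most 0.235 CPM, and its antisense gene ITGA9-AS1 was at 1.28 to 2.69 CPM. Neither gene passed the filter on low counts, so the tests cover 8 of the 10 members, and no difference between groups was detectable for these 2 at this depth.

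Each construct was compared with pMSCV, each fusion with SRF, and the fusions with each other, 15 comparisons in all. Without a term for the library number, edgeR's quasi-likelihood test called 0 of the 8 tested members in each comparison at an adjusted p under 0.05. Of these 120 tests, 22 had an unadjusted p under 0.05. The share of all tested genes at that unadjusted level is not given here and the comparisons share libraries, so nothing is read from the 22. DESeq2 called 7 of the 120, but the share of all tested genes that it called is not given here, so this count has no background beside it. Libraries with the same number deviated together, as described in the processing section, and with the number as a block edgeR called 14 of the 120. These calls fell on 3 genes, ITGA7, ITGB3 and ITGA5. Of the 14, 2 (ITGA7 and ITGB3) were in the libraries labelled SRF-FOXO1 against SRF, where the numbers do not pair the libraries by the rule used. With all 18 libraries, the other 5 tested members were not called in any comparison by either edgeR fit or by DESeq2. The share of all 18544 tested genes called against pMSCV with the block was 7.03% in the libraries labelled SRF-FOXO1, 4.66% in SRF-ICA1L, 0.971% in SRF-RELA, 0.178% in SRF-PDGFRB and 0.243% in SRF. The members called were 3, 1, 1, 0 and 0 of 8, in the same order. Without the block those shares were 0.928%, 0.469%, 0.183%, 0.0324% and 0.027%. Comparisons against pMSCV share its 3 libraries. Libraries did not overlap those of pMSCV for 19.2%, 18.6%, 13.1%, 9.82% and 9.8% of all tested genes, in the same order.

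**Figure D2:**
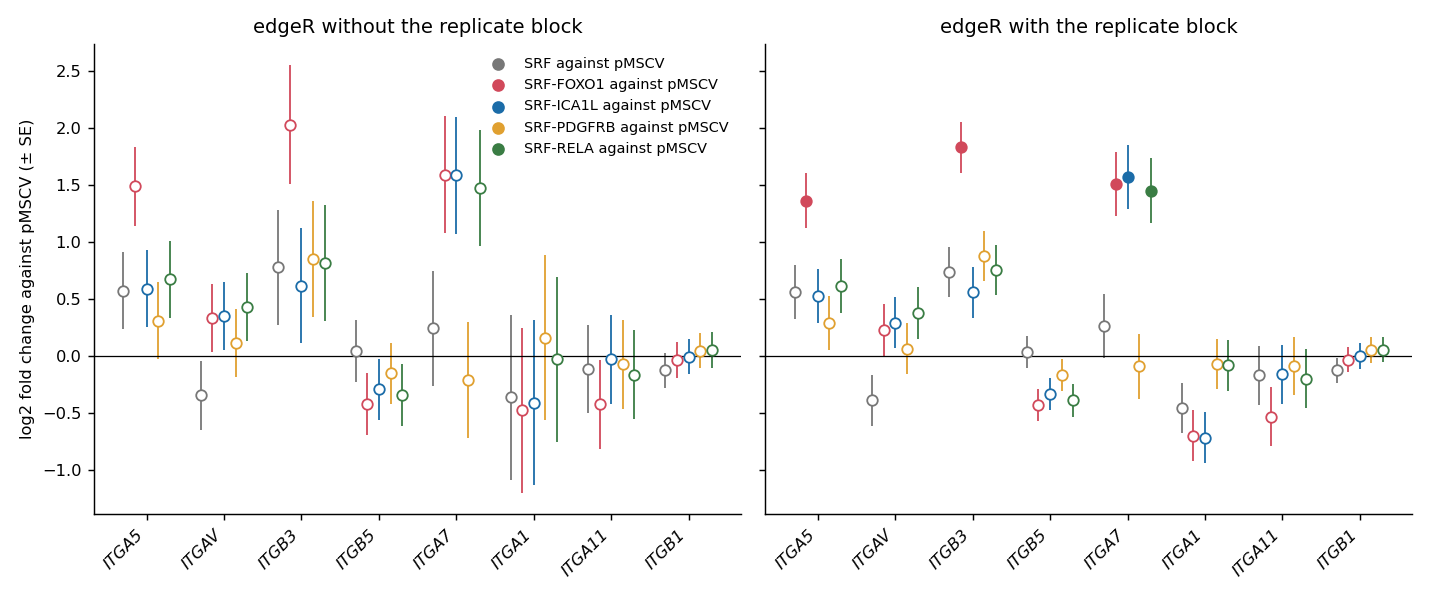
Log2 fold changes of the 8 tested members against pMSCV with their standard errors, from edgeR without (left) and with (right) the library number as a block; filled symbols have an adjusted p under 0.05. ITGA7 is filled on the right in 3 fusion groups, with 1.45 to 1.57, and ITGA5 and ITGB3 only in the libraries labelled SRF-FOXO1, with 1.36 and 1.83.

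ITGA7, the muscle laminin receptor subunit (ENSG00000135424, chr12:55684568-55716043, minus strand), was higher in 3 of the 4 fusion groups than in pMSCV by the blocked fit. It was at 18.8, 33.1 and 14.9 CPM in pMSCV replicates 1, 2 and 3 and at 27.3, 35.8 and 14.3 CPM in SRF. In the same order it was at 34.4, 105 and 46.2 CPM under the SRF-FOXO1 label, 45.6, 90.6 and 47.1 CPM in SRF-ICA1L and 35.0, 91.5 and 50.6 CPM in SRF-RELA. In SRF-PDGFRB it was at 20.7, 19.2 and 17.9 CPM. Each library of the first 3 fusion groups was above each pMSCV library, and the SRF-PDGFRB libraries lay within the pMSCV range. By edgeR with the block, the libraries labelled SRF-FOXO1 exceeded pMSCV by 1.51 on the log2 scale (SE 0.28, adjusted p 0.00667). SRF-ICA1L exceeded it by 1.57 (SE 0.28, edgeR adjusted p 0.00654) and SRF-RELA by 1.45 (SE 0.28, edgeR adjusted p 0.0231). Without the block the same values were 1.59, 1.59 and 1.48, with edgeR adjusted p 0.169, 0.243 and 0.854. In SRF-PDGFRB it was -0.09 and in SRF 0.26, not called in either fit (edgeR adjusted p with the block 0.99971 and 0.772). Leaving out 1 library from the blocked fit cost the call in 0 of 6 fits for SRF-ICA1L and for the libraries labelled SRF-FOXO1, but in 5 of 6 for SRF-RELA (edgeR adjusted p up to 0.134, without SRF-RELA replicate 2). The call in SRF-RELA was kept only without SRF-RELA replicate 1.

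The difference between SRF-PDGFRB and the other fusions was tested directly. With the block, ITGA7 was higher than in SRF-PDGFRB by 1.60 on the log2 scale (SE 0.29, edgeR adjusted p 0.00733) in the libraries labelled SRF-FOXO1 and by 1.66 (SE 0.29, edgeR adjusted p 0.00480) in SRF-ICA1L. SRF-PDGFRB set against SRF-RELA gave -1.54 (SE 0.29, edgeR adjusted p 0.0192). These 3 comparisons called 4.35%, 4.76% and 0.847% of all tested genes with the block, and 0.717%, 0.82% and 0.162% without it. Without the block the edgeR adjusted p-values of ITGA7 were 0.137, 0.144 and 0.514. The first 2 differences kept their call without any 1 library, and the third lost it in 4 of 6 fits (edgeR adjusted p up to 0.102, without SRF-RELA replicate 3; the others were those without SRF-RELA replicate 2 and SRF-PDGFRB replicates 2 and 3). Against SRF, ITGA7 was higher in SRF-ICA1L by 1.31 with the block (SE 0.28, edgeR adjusted p 0.0173; 0.302 without the block), where 4.73% of all tested genes were called with the block and 0.782% without it. This call was lost without SRF replicate 2 (edgeR adjusted p 0.103), SRF replicate 3, SRF-ICA1L replicate 2 or SRF-ICA1L replicate 3. In SRF-RELA against SRF it was 1.19 with the block (SE 0.28, edgeR adjusted p 0.0515) and 1.23 without it (edgeR adjusted p 0.482). The blocked fit called that difference without SRF replicate 1 (1.49, edgeR adjusted p 0.0280) or SRF-RELA replicate 1 (1.41, edgeR adjusted p 0.0397). Among the libraries labelled SRF-FOXO1, SRF-ICA1L and SRF-RELA themselves, ITGA7 differed by at most 0.12 on the log2 scale, with SEs of 0.27 with the block and about 0.50 without it. On the opposite strand of ITGA7 lie METTL7B (1.00 to 11.55 CPM) and BLOC1S1 (6.24 to 10.9 CPM), and it is not given in the sources used here whether counting used strand.

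ITGB3, the beta subunit of the vitronectin receptor (ENSG00000259207, chr17:47253846-47311816), was highest in the libraries labelled SRF-FOXO1. It was at 9.45, 17.4 and 13.8 CPM in pMSCV, 15.5, 33.1 and 19.6 CPM in SRF and 26.6, 96.1 and 29.9 CPM under the SRF-FOXO1 label. It was at 12.6, 27.3 and 17.2 CPM in SRF-ICA1L, 20.1, 29.2 and 24.0 CPM in SRF-PDGFRB and 14.9, 33.3 and 20.1 CPM in SRF-RELA. The libraries labelled SRF-FOXO1 were above each pMSCV library, and their replicate 2 was above all other 17 libraries. Against pMSCV the difference was 1.83 on the log2 scale with the block (SE 0.22, edgeR adjusted p 0.00027) and 2.03 without it (SE 0.52, edgeR adjusted p 0.0867), and the blocked call held without any 1 library, with values from 1.40 to 2.06. Without replicate 1 of the libraries labelled SRF-FOXO1, the fit without the block called ITGB3 too (2.34, edgeR adjusted p 0.0352). In the other constructs ITGB3 was not called against pMSCV in either fit, with blocked values from 0.56 in SRF-ICA1L to 0.88 in SRF-PDGFRB (edgeR adjusted p 0.185 to 0.246), although each same-numbered pair, 3 of 3 for each construct, had it above pMSCV.

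Compared with the other fusions, ITGB3 was higher in the libraries labelled SRF-FOXO1 than in SRF-ICA1L by 1.27 with the block (SE 0.22, edgeR adjusted p 0.0117), where 0.911% of all tested genes were called. Without the block it was 1.41 (edgeR adjusted p 0.642), where 0.027% of genes were called, and without SRF-ICA1L replicate 2 the blocked adjusted p was 0.103. Against SRF-PDGFRB it was 0.95 with the block (SE 0.22, edgeR adjusted p 0.0232; 0.297 without the block). That call was lost without replicate 2 of the libraries labelled SRF-FOXO1, SRF-PDGFRB replicate 2 (edgeR adjusted p 0.148) or SRF-PDGFRB replicate 3. Against SRF-RELA it was 1.08 with the block and was not called (SE 0.22, edgeR adjusted p 0.0657). Without replicate 1 or replicate 3 of the libraries labelled SRF-FOXO1 it was called (1.22 and 1.30, edgeR adjusted p 0.0427 and 0.0206). For comparison, 0.167% of all tested genes were called there with the block and 0.00539% without it. In SRF-ICA1L against SRF-RELA these shares were 0.0162% and 0.0108%, and 0 members were called.

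ITGA5, the fibronectin receptor subunit (ENSG00000161638, chr12:54395261-54419460, minus strand), was also highest in the libraries labelled SRF-FOXO1. It was at 467, 501 and 558 CPM in pMSCV, 672, 765 and 781 CPM in SRF and 649, 2037 and 1289 CPM under the SRF-FOXO1 label. It was at 490, 836 and 792 CPM in SRF-ICA1L, 531, 646 and 719.8 CPM in SRF-PDGFRB and 559, 1019 and 756 CPM in SRF-RELA. The libraries of SRF, SRF-RELA and those labelled SRF-FOXO1 were all above the pMSCV libraries, while SRF-ICA1L and SRF-PDGFRB overlapped pMSCV. Against pMSCV the log2 fold change in the libraries labelled SRF-FOXO1 was 1.36 with the block (SE 0.24, edgeR adjusted p 0.00397) and 1.49 without it (SE 0.34, edgeR adjusted p 0.0538). The blocked call held without any 1 library, with values from 0.99 to 1.64, and without replicate 1 of the libraries labelled SRF-FOXO1 the fit without the block called it too (1.82, edgeR adjusted p 0.00335). In the other 4 constructs it was between 0.29 and 0.61 with the block and was not called (edgeR adjusted p 0.251 to 0.99971), although ITGA5 was higher than in pMSCV in 3 of 3 pairs of libraries in each. It was higher in the libraries labelled SRF-FOXO1 than in SRF-PDGFRB by 1.07 with the block (SE 0.24, edgeR adjusted p 0.0208; 0.135 without the block), a call lost without replicate 2 of the libraries labelled SRF-FOXO1, SRF-PDGFRB replicate 2 (edgeR adjusted p 0.128) or SRF-PDGFRB replicate 3. Against SRF-ICA1L and SRF-RELA it was 0.83 and 0.75 with the block, not called (edgeR adjusted p 0.154 and 0.181), and without replicate 1 of the libraries labelled SRF-FOXO1 both were called (1.11 and 1.02, edgeR adjusted p 0.0143 and 0.0401).

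Against SRF, the libraries labelled SRF-FOXO1 had log2 fold changes of 0.92 for ITGA5 (SE 0.34, edgeR adjusted p 0.217), 1.35 for ITGA7 (SE 0.51, edgeR adjusted p 0.2295) and 1.25 for ITGB3 (SE 0.51, edgeR adjusted p 0.265), none of them called without the block. With it ITGA7 and ITGB3 were called, each higher in 3 of 3 pairs, and their values stand with the other effects of the block in the closing section. Without replicate 1 of the libraries labelled SRF-FOXO1, ITGA5 was called (1.25, edgeR adjusted p 0.0214). The background of called genes in this comparison was 1.36%, and 7.23% with the block. In SRF against pMSCV the members' median log2 fold change was -0.03, beside 0.01 for all tested genes, and in the libraries labelled SRF-FOXO1 it was 0.15 beside 0.01. In SRF-ICA1L, SRF-RELA and SRF-PDGFRB against pMSCV it was 0.17, 0.24 and 0.08, beside -0.01, -0.01 and 0.003475.

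ITGAV, the partner of ITGB3 and ITGB5 (ENSG00000138448, chr2:186590065-186680901), was not called in any comparison with all libraries. It was at 580 to 698 CPM in pMSCV, 337 to 573 CPM in SRF, 537 to 1134 CPM under the SRF-FOXO1 label, 609.7 to 885 CPM in SRF-ICA1L, 610 to 816 CPM in SRF-PDGFRB and 660 to 1003 CPM in SRF-RELA. The lowest library of all was SRF replicate 3. Without the block SRF-ICA1L differed from SRF by 0.69, SRF-PDGFRB by 0.46 and SRF-RELA by 0.78 on the log2 scale, with no overlap between the libraries (edgeR adjusted p 0.376, 0.565 and 0.449). With the block these were 0.68, 0.46 and 0.77 (edgeR adjusted p 0.104, 0.289 and 0.114). Leaving SRF replicate 1 out of the blocked fit gave calls in SRF-ICA1L (0.94, edgeR adjusted p 0.0350) and SRF-RELA (1.03, edgeR adjusted p 0.0372). For comparison, 15%, 17.8% and 15.7% of all tested genes had no overlap there. The shares of all genes called in SRF-PDGFRB and SRF-RELA against SRF were 0.146% and 0.388% without the block and 2.34% and 1.73% with it, and 0 members were called.

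ITGB5, the widely expressed alternative partner of ITGAV (ENSG00000082781, chr3:124761948-124901418, minus strand), was at 533, 414 and 395 CPM in pMSCV and 365, 233 and 362 CPM under the SRF-FOXO1 label. Its log2 fold change there was -0.43 with the block (SE 0.14, edgeR adjusted p 0.0787) and -0.42 without it (SE 0.27, edgeR adjusted p 0.478). SRF-ICA1L and SRF-RELA had -0.33 and -0.39 with the block (edgeR adjusted p 0.221 and 0.394). In these 3 fusion groups ITGB5 was lower than in pMSCV in 3 of 3 pairs, but not called. In SRF-PDGFRB and SRF it was also not called against pMSCV in either fit.

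ITGB3 and ITGB5 compete for ITGAV, so their reads per exon length were set against each other within each library, a description chosen after the values were seen. ITGB3 was at 2.60%, 6.18% and 5.13% of ITGB5 in pMSCV replicates 1, 2 and 3, and at 10.7%, 60.6% and 12.1% in the libraries labelled SRF-FOXO1. It was at 4.30%, 12.4% and 6.67% in SRF and 4.04%, 18.3% and 7.21% in SRF-ICA1L. In SRF-PDGFRB it was at 6.21%, 13.3% and 8.40% and in SRF-RELA at 4.83%, 23.2% and 8.09%. ITGB5 thus gave more reads per length than ITGB3 in each library. Within each number, the libraries labelled SRF-FOXO1 had the highest share and pMSCV the lowest.

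**Figure D3:**
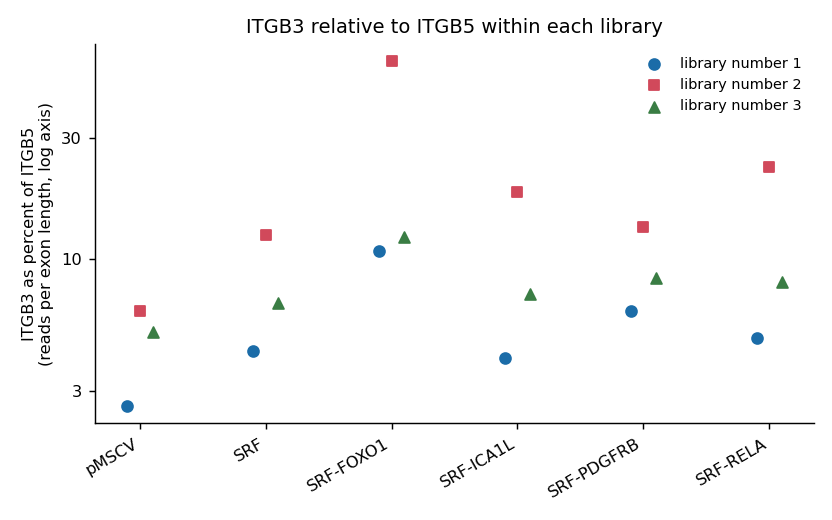
ITGB3 as a percent of ITGB5, in reads per exon length, in each of the 18 libraries on a log axis (symbols give the library number). Each library labelled SRF-FOXO1 is the highest of its number, up to 60.6% in number 2, and each group is highest in number 2.

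ITGB1, the common beta subunit (ENSG00000150093, chr10:32900319-33005792, minus strand), was not called in any comparison. It ran from 2302 to 3240 CPM over the 18 libraries. Its log2 fold changes against pMSCV lay between -0.12 in SRF and 0.05 in SRF-RELA, each with an SE of 0.16 without the block. With the block they lay between -0.13 and 0.06 in the same constructs, each with an SE of 0.11. The collagen receptor subunits ITGA1 (ENSG00000213949, chr5:52787896-52959210) and ITGA11 (ENSG00000137809, chr15:68296533-68432162, minus strand) were not called either. ITGA1 was at 358, 192 and 193 CPM in pMSCV, 338, 96.6 and 84.8 CPM under the SRF-FOXO1 label and 361, 93.2 and 70.0 CPM in SRF-ICA1L. With the block its log2 fold changes there were -0.70 (SE 0.22, edgeR adjusted p 0.0711) and -0.72 (SE 0.22, edgeR adjusted p 0.0873), and it was lower than in pMSCV in 3 of 3 and 2 of 3 pairs. Without pMSCV replicate 1, the library with the highest ITGA1 level of that group, the blocked fit called both (-0.94 and -0.96, edgeR adjusted p 0.0300 and 0.0296). Without SRF-ICA1L replicate 1 it called the difference in SRF-ICA1L from pMSCV (-0.97, edgeR adjusted p 0.0303) and from SRF-PDGFRB (-0.92, edgeR adjusted p 0.0429). PELO, on the same strand within ITGA1, was at 20.4 to 33.2 CPM. ITGA11 was at 305, 385 and 367 CPM in pMSCV and 146, 374 and 212 CPM under the SRF-FOXO1 label, a log2 fold change of -0.53 with the block (SE 0.26, edgeR adjusted p 0.237).

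ITGA1, ITGA11, ITGB1 and ITGB5 varied more with the library number than with the group. The number took 78.5% of the sum of squares of ITGA1 over the 18 libraries (log2 CPM, TMM-scaled), 66.5% of that of ITGB1, 57.9% of that of ITGB5 and 49.98% of that of ITGA11, beside a median of 21.0% over all tested genes. The group took 13.4%, 15.1%, 27.5% and 14.5% in the same order, beside a median of 33.4%. On the TMM scale ITGA1 was at 306 to 523 CPM in the 6 libraries numbered 1, at 102 to 186 CPM in those numbered 2 and at 71.3 to 185 CPM in those numbered 3. So each library numbered 1 was above the other 12, whatever its construct, which held for 0.938% of all tested genes. In the libraries numbered 2, ITGB1 (2987 to 3181 CPM) and ITGA11 (362 to 560 CPM) were above the other 12, as were 0.2% of tested genes. For ITGA7 the group took 65.4% and the number 23.8%, and for ITGA5 52.4% and 27.2%. For ITGB3 they took 49.2% and 41.7%, and for ITGAV 38.9% and 28.9%. There are more groups than numbers, so random spread alone gives the group the larger share, and the shares of group and number are not on an equal scale. What a number marks is not stated in the labels, and its part in these levels was not tested.

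**Figure D4:**
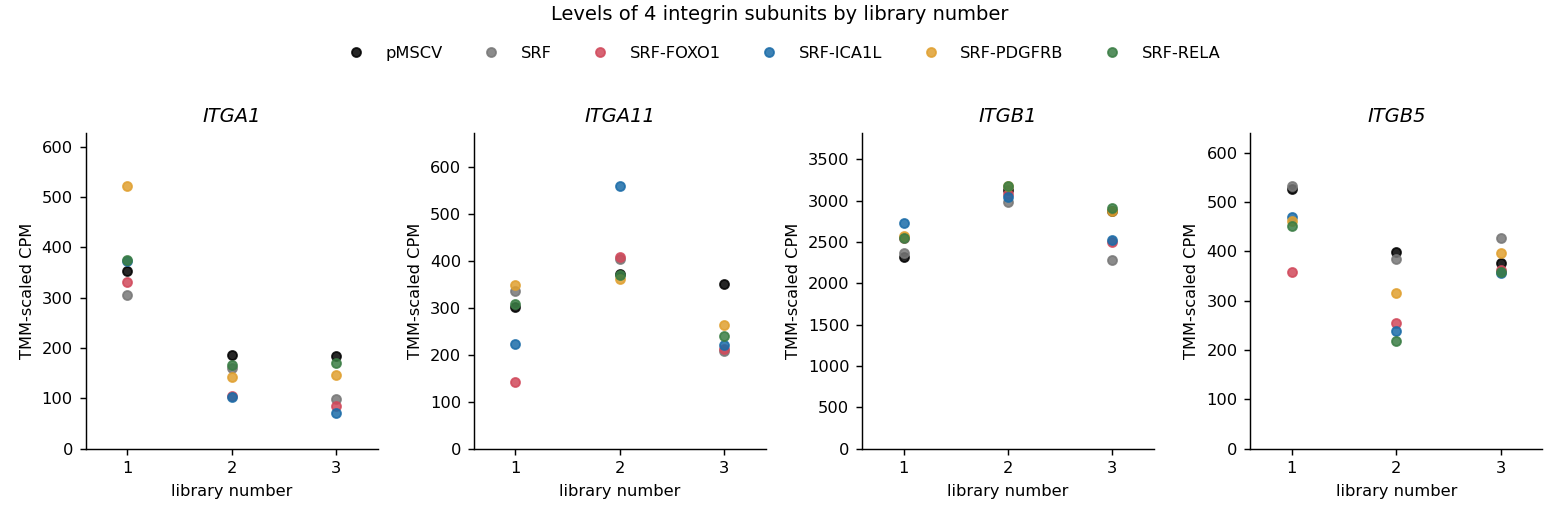
TMM-scaled CPM of ITGA1, ITGA11, ITGB1 and ITGB5 by library number, with 1 point for each of the 6 groups. ITGA1 is highest in number 1, from 306 to 523 CPM, and ITGA11 and ITGB1 in number 2.

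Other genes of integrin adhesion were taken from 3 lists. Of 19 genes that activate integrins or link them to actin, all 19 were tested, and with the block 7 were called higher in the libraries labelled SRF-FOXO1 against pMSCV, 3 in SRF-ICA1L, 2 in SRF-RELA, 1 in SRF and 0 in SRF-PDGFRB, with 0 lower in each. Without the block these counts were 0, 1, 0, 0 and 0. In the same order, the shares of all tested genes called were 7.03%, 4.66%, 0.971%, 0.243% and 0.178% with the block. They were 0.928%, 0.469%, 0.183%, 0.027% and 0.0324% without it. The median log2 fold change of these 19 genes in the libraries labelled SRF-FOXO1 was 0.32, beside 0.01 for all tested genes, and in SRF-ICA1L 0.24 beside -0.01. LIMS2, a PINCH adaptor of the integrin-linked kinase, was at 1.63 to 5.93 CPM in pMSCV. SRF-ICA1L had 15.2 to 35.4 CPM, a difference of 3.07 on the log2 scale without the block (SE 0.63, edgeR adjusted p 0.0480) and 3.13 with it (SE 0.34, edgeR adjusted p 0.000144). It was called with the block in the libraries labelled SRF-FOXO1 and in SRF-RELA, by 2.54 and 2.28 (edgeR adjusted p 0.000577 and 0.00310), and in SRF too, by 2.33 (SE 0.34, edgeR adjusted p 0.00956). FERMT2, the kindlin that activates integrin tails, was higher with the block in SRF-ICA1L (0.77), SRF-RELA (0.56) and the libraries labelled SRF-FOXO1 (0.58), with edgeR adjusted p 0.00110, 0.0233 and 0.00714. Without the block these were 0.168, 0.99996 and 0.212.

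PARVA, a parvin that links integrins to actin, was higher with the block in SRF-ICA1L by 0.58 (edgeR adjusted p 0.0232) and by 0.53 in the libraries labelled SRF-FOXO1 (edgeR adjusted p 0.0300). BCAR1, a scaffold of adhesion signalling, and VCL, vinculin, were higher with the block in the libraries labelled SRF-FOXO1, by 0.60 and 0.91 (edgeR adjusted p 0.00811 and 0.0208). LIMS1, the other PINCH gene, was called in no comparison with pMSCV, but with the block it was called in a comparison with SRF (smallest edgeR adjusted p 0.0193). Without the block, BCAR1 alone of these 4 genes was called in a comparison with SRF, higher in the libraries labelled SRF-FOXO1 by 0.76 (SE 0.17, edgeR adjusted p 0.0353).

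Of 16 further integrin subunits, 13 were tested. ITGB8, which pairs with ITGAV, was the only one called without the block. It was at 20.5, 22.3 and 32.7 CPM in pMSCV and 10.5, 10.0 and 16.1 CPM under the SRF-FOXO1 label, where it fell by 0.97 on the log2 scale (SE 0.19, edgeR adjusted p 0.0285), and it fell by 0.91 against SRF (SE 0.19, edgeR adjusted p 0.0292). With the block it was also lower in SRF-ICA1L against pMSCV (-0.59, edgeR adjusted p 0.0276; 0.224 without the block). ITGA6, a laminin receptor subunit, was at 43.2, 63.0 and 63.7 CPM in pMSCV and 70.9, 92.0 and 102 CPM under the SRF-FOXO1 label, higher by 0.73 with the block (edgeR adjusted p 0.00488) and not called without it (edgeR adjusted p 0.175). In SRF-ICA1L against pMSCV the block called ITGA4, a receptor of fibronectin and VCAM1, higher by 0.72 (edgeR adjusted p 0.0239) and ITGA10, a collagen receptor subunit, lower by a log2 fold change of -1.11 (edgeR adjusted p 0.0229). ITGA3, another laminin receptor subunit, was called in no comparison with pMSCV, but with the block it was called in a comparison with SRF (smallest edgeR adjusted p 0.0463).

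Of 24 integrin ligand genes, 22 were tested. THBS1, thrombospondin, was at 416, 695 and 474 CPM in pMSCV, 1208, 4729 and 1924 CPM under the SRF-FOXO1 label, 2366, 3518 and 2333 CPM in SRF-ICA1L and 1582, 3432 and 1965 CPM in SRF-RELA. In SRF-PDGFRB it was at 839.5, 831 and 822 CPM, and it was not called there in either fit. All libraries of the 4 fusion groups were above those of pMSCV. Without the block it rose against pMSCV in SRF-ICA1L by 2.50 (SE 0.44, edgeR adjusted p 0.0160), and by 2.43 in the libraries labelled SRF-FOXO1 (SE 0.44, edgeR adjusted p 0.0212). SRF-RELA had 2.21 (edgeR adjusted p 0.0668), a call only with the block (2.16, edgeR adjusted p 0.00278). With the block, 7 of the 22 ligand genes were higher in SRF-ICA1L and 0 lower, beside 1 and 0 without it, and in the libraries labelled SRF-FOXO1 2 were higher and 3 lower, beside 1 and 0. The 7 include COL1A1, COL1A2 and COL4A1, which encode chains of fibrillar and basement membrane collagen, by 1.24, 0.87 and 1.34, and MFGE8, a milk fat globule protein that binds ITGAV, by 0.82 (edgeR adjusted p 0.0135, 0.0237, 0.00516 and 0.00965). Without the block these 4 had edgeR adjusted p-values of 0.128, 0.204, 0.564 and 0.1255. For comparison, 4.66% of all tested genes were called in SRF-ICA1L against pMSCV with the block and 0.469% without it. Under the SRF-FOXO1 label these shares were 7.03% and 0.928%. TNC, tenascin C, was called in no comparison with pMSCV, but it was called in a comparison with SRF (smallest edgeR adjusted p over the fits without and with the block 0.0104).

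For the 3 members called in a fit, the tested genes with the most similar levels over the 18 libraries (Pearson's r of TMM-scaled log2 CPM) were found. For ITGA7 they were PARVA (r = 0.94) and ENSG00000260604 (r = 0.94), for ITGA5 TRPC4 (r = 0.93), and for ITGB3 PLAU, the urokinase gene (r = 0.92), and FRMPD4 (r = 0.90). These points share libraries and library numbers, and the values are the highest among all tested genes, so they are descriptions only.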

How the data were processed

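Stranded mRNA libraries of total RNA were sequenced on an Illumina NovaSeq, per the labels' protocols. The authors deposited raw counts per Ensembl gene, 1 column per library. The submitters' processing notes name FastQC 0.11.8, Trimmomatic 0.39, HISAT2 2.12.1, featureCounts, Subread 2.0.3 and the build GRCh38; the annotation release and the strand setting are not given in the sources used here. Gene positions and exon lengths (union of exons) come from GENCODE 29.

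Genes were filtered by filterByExpr (minimum count 10), which left 18544, and scaled by TMM. edgeR 4.0.16 in R 4.3.3 fitted a robust quasi-likelihood model to the 18 libraries (12 residual degrees of freedom, common biological coefficient of variation 0.225). Tests were two-sided F tests with Benjamini-Hochberg adjustment over all tested genes, called under 0.05; the SE is the absolute log2 fold change over the square root of F. Of 45 pairs of same-numbered libraries from different groups, 44 had deviations from group means that correlated above 0.1 (median 0.375, against -0.18 for 90 pairs with different numbers). The exception, at 0.0875, was between SRF and the libraries labelled SRF-FOXO1. Deviations from a group mean cancel within the group, so the negative median follows from the positive one and is no separate evidence of pairing. The pairing is thus read from the values, and a fit with the number as a block (10 residual degrees of freedom, coefficient 0.15) is used beside the unblocked one in the other 14 comparisons. The procedure was tested on simulated data, with 200 of 18544 genes changed in SRF-FOXO1 against pMSCV. Each fit was run on data simulated from its own model, with an effect of the number only for the blocked fit. The results therefore cannot show which fit suits the real libraries better. Without the block the procedure recovered 52% of 2-fold and 79% of 4-fold changes, and with the block 66% and 82%. Each fit made 7 false calls. A change that was not called is thus not shown to be absent.

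The members, lists and rules were chosen with earlier results of these data known. Named besides the members were SRF, up to 6 genes per list called against pMSCV or SRF in either fit, and the 2 nearest genes by correlation of each called member; the genes of the fusion partners, marker lists and overlapping genes are context. A marker and a nearest gene are not reported here. Alternatives were DESeq2 1.42.0 (size factors, Wald test), total counts, other filters, only 2 groups, the block, and leaving out libraries.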

Additional observations from a re-analysis of the deposited data

How the results depend on the processing

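Without the block, the number of members called was 0 in each of the 15 comparisons, and it stayed 0 with DESeq2 size factors, total counts, only the 2 groups compared, a floor of 10 counts per library and no filter at all. The DESeq2 Wald test called 3 members in the libraries labelled SRF-FOXO1 against pMSCV, 1 in SRF-ICA1L against pMSCV, 2 in the libraries labelled SRF-FOXO1 against SRF-PDGFRB and 1 in SRF-ICA1L against SRF-PDGFRB. The share of all tested genes called by that test is not given here. The replicate block called 3, 1 and 1 against pMSCV in the libraries labelled SRF-FOXO1, SRF-ICA1L and SRF-RELA, 1 in SRF-ICA1L against SRF, and 1, 3, 1 and 1 in the libraries labelled SRF-FOXO1 against SRF-ICA1L and SRF-PDGFRB, in SRF-ICA1L against SRF-PDGFRB and in SRF-PDGFRB against SRF-RELA. It changed no other call of a member, apart from the libraries labelled SRF-FOXO1 against SRF, where the numbers do not pair the libraries by the rule used. There the block called 2 (ITGA7 with 1.25 and ITGB3 with 1.09, edgeR adjusted p 0.0165 and 0.00764). In blocked fits that left out 1 library, ITGA7 lost this call in 3 of 6 (edgeR adjusted p up to 0.104, without SRF replicate 2). ITGB3 lost its call in 1 of 6, without SRF replicate 2 (edgeR adjusted p 0.0567). Leaving out SRF replicate 1 there added ITGAV (0.86, edgeR adjusted p 0.0470), leaving out SRF replicate 3 added ITGB5 (-0.52, edgeR adjusted p 0.0397), and leaving out replicate 1 of the libraries labelled SRF-FOXO1 added ITGA5 (1.08, edgeR adjusted p 0.00310).

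Leaving out 1 library or 1 number, without the block or (added after seeing the data) with it, gave 0 to 4 called members in the libraries labelled SRF-FOXO1 against pMSCV, 0 to 2 in SRF-ICA1L and 0 to 1 in SRF-RELA. Against SRF the ranges were 0 to 3, 0 to 2 and 0 to 2 in the same fusions. They were 0 to 2, 0 to 3 and 0 to 2 for the libraries labelled SRF-FOXO1 against SRF-ICA1L, SRF-PDGFRB and SRF-RELA, 0 to 2 for SRF-ICA1L against SRF-PDGFRB and 0 to 1 for SRF-PDGFRB against SRF-RELA. These ranges take in fits without and with the block. The share of all tested genes called in fits that left out libraries is not given here, so the ranges have no background beside them. Without the block, leaving out replicate 1 of the libraries labelled SRF-FOXO1 gave calls of ITGA5 (1.82, edgeR adjusted p 0.00335) and ITGB3 (2.34, edgeR adjusted p 0.0352) against pMSCV. No fold change of a member reversed with a call. Calls of the other adhesion genes over the 9 comparisons with pMSCV or SRF numbered 9, beside 30 with the DESeq2 Wald test, 5 with no count filter, 2 with only the 2 groups compared and 55 with the replicate block. The main fit tested 54 of these genes in each comparison. With the block the share of all tested genes called rose as well, from 0.928% to 7.03% in the libraries labelled SRF-FOXO1 against pMSCV. For the DESeq2 Wald test, no count filter and only the 2 groups, that share is not given here. The cause was not tested. Depth limits ITGA8 and ITGA9, which were not tested.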
